A study of Mus musculus with 4 samples.

Results

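Toll-like receptors (TLRs) and the proteins that serve them were followed in mouse liver RNA across 4 expression arrays. The set held 10 genes: the receptors Tlr2, Tlr3, Tlr4, Tlr5, Tlr7, Tlr8 and Tlr9, the adaptor Myd88, and Cd14 and Ly96, whose products bring lipopolysaccharide to TLR4. Probes were assigned to these genes through the transcript accession that the array files give for each probe. This gave 18 probes for the 10 genes, out of 56605 probes on the array, of which 33767 matched 23462 genes. The livers came from male mice fasted for 12 hours and formed 4 groups with 1 array each. The APS plus metformin group was aging diabetic mice treated with astragalus polysaccharide (APS, the sugar polymers of the herb Astragalus) and metformin, a biguanide that lowers blood glucose. The metformin group was aging diabetic mice treated with metformin. For the aging diabetic group the labels name no drug, and the natural aging group had neither the diabetes model nor a drug. Strain, age, the way diabetes was modelled, doses and whether each RNA came from 1 mouse or a pool are not given in the sources used here. The titles name 60 days without saying what was counted.

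TLRs are membrane receptors of innate immunity that bind molecules of microbes. TLR2, TLR4 and TLR5 sit at the cell surface and detect bacterial lipopeptides, lipopolysaccharide and flagellin, while TLR3, TLR7, TLR8 and TLR9 sit in endosomes and detect nucleic acids. MyD88 carries the signal of all of these receptors except TLR3, which uses the adaptor TRIF, towards NF-kB and interferon regulatory factors. In liver, Kupffer cells, the resident macrophages, meet gut-derived products arriving in portal blood and carry several of these receptors. Astragalus polysaccharide has been reported to act through TLR4, and the study's title asks how its combination with metformin relates to liver mRNA in aging diabetic mice.

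Leaving out controls, 59305 spots were read per array, of which 35743 were well above background with APS plus metformin, 37402 with metformin, 34895 in aging diabetic liver and 33668 in natural aging liver. With 1 array per group there is no spread between animals and no test was possible, so every difference below is a difference between 2 arrays. The error given with a difference is the measurement error that the image analysis assigned to both spots, between 0.163 and 0.248 log2 for measured differences of these genes. Levels said not to differ beyond measurement error lie within the 95% interval that this error gives. Genes past 1 log2, which is 2-fold, were called higher or lower, and levels are log2 of the signal relative to the array's 75th percentile, so that 0 is the level of that percentile. The hepatocyte gene Alb stood between 3.78 and 4.23 on all 4 arrays. The natural aging array stood apart in pancreatic acinar genes, which differed between the other arrays too. The summed signal of 5 such genes was 0.108 times the 75th percentile on the APS plus metformin array, 8.32 on the metformin array, 2.12 on the aging diabetic array and 41.2 on the natural aging array. Of these genes, Amy2b, Cel, Cpa1 and Prss2 were not well above background with APS plus metformin, and the part of these differences in the results below was not tested.

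Of the 18 probes, 12 were well above background on all 4 arrays, 2 on some arrays and 4 on none. For a gene with several probes the brightest usable probe stood for it, and 9 of the 10 genes were well above background on all 4 arrays by that probe. Tlr3 was the exception. The dim probes were the second probe of Tlr4, the Tlr7 probe for a separate transcript variant, and 2 of the 3 Tlr8 probes. Tlr4 and Tlr8 thus each rest on a single detected probe, although their dim probes are assigned to the same transcript. Tlr2, Tlr5, Tlr9 and Myd88 have 1 probe each, so they too rest on a single probe. No probe of these genes was saturated.

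**Figure D1:**
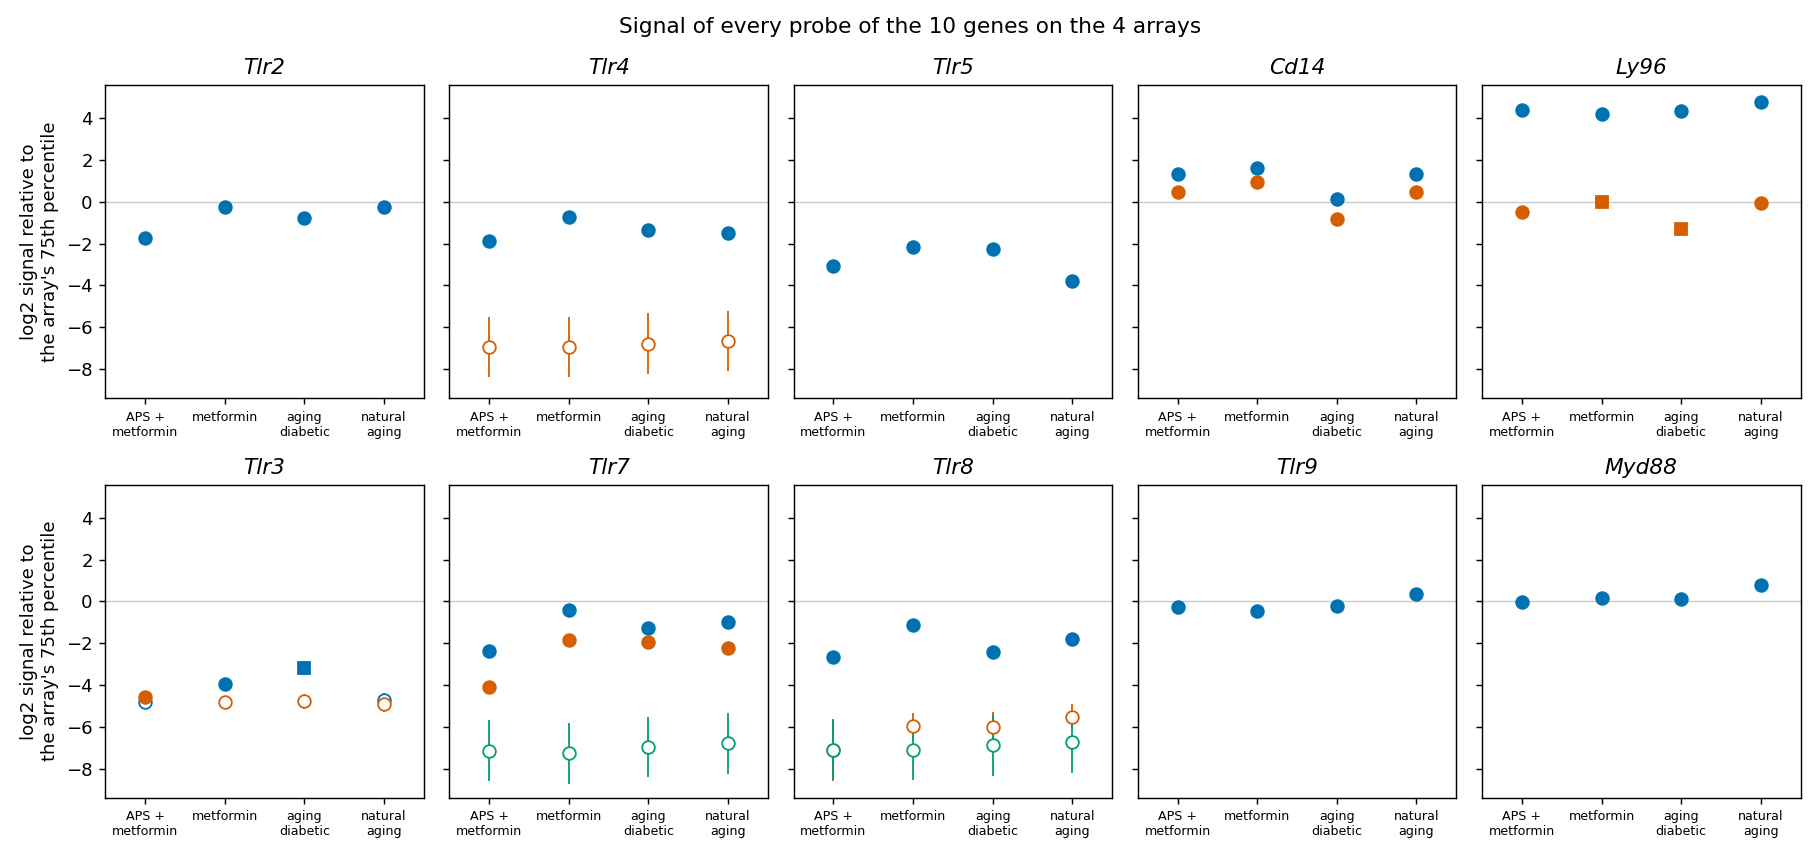
Signal of all 18 probes on the 4 arrays, as log2 relative to the array's 75th percentile (y axis), by group (x axis). Colours separate the probes of a gene, filled symbols are well above background, open symbols are not, squares carry an outlier flag, and bars are 1 measurement error. Tlr2, Tlr4, Tlr7 and Tlr8 are lowest on the APS plus metformin array and highest on the metformin array by their brightest probe, although Tlr8 with APS plus metformin and in aging diabetic liver, and Tlr2 with metformin and in natural aging liver, do not differ beyond measurement error, while Cd14 is lowest on the aging diabetic array.

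Between the APS plus metformin and the metformin array, the receptors Tlr2, Tlr4, Tlr7 and Tlr8 were at least 2-fold lower and none of the 10 genes was at least 2-fold higher. Among all 15599 genes compared between these arrays, 12.4% were at least 2-fold lower and 2.37% at least 2-fold higher. The median difference of the 10 genes was -0.58 log2, against -0.03 over all genes. Cd14, Ly96, Myd88 and Tlr9 were within 0.28 log2 of 0 by their brightest usable probes. The second probes of Cd14 and Ly96 were at -0.46 and -0.50 log2, the latter with an outlier flag on the metformin array. Tlr3, counted among the 10, was near background and its difference lay within measurement error. Some markers of cell types were also at least 2-fold lower between these arrays and are given further on. They were 4 of 8 for recruited monocytes and macrophages, 5 of 5 compared for T and NK cells and 1 of 3 compared for stellate cells. Among those 4, Cx3cr1 and Itgax were bounds, which could fall only on the lower side. In these lists 0 were at least 2-fold higher, while Itgam, at 0.54 log2, and Dcn, at 0.08, lay on the higher side. The Itgam probe read near the level of the hepatocyte gene Alb, and whether its signal comes from Itgam RNA alone was not tested. In the other lists, lower markers were 1 of 6 for Kupffer cells and 1 of 5 each for plasmacytoid dendritic and sinusoidal endothelial cells. Of the genes compared, they were 1 of 4 for neutrophils, 2 of 2 for B cells, 5 of 5 for acinar cells and 0 of 3 for hepatocytes. No marker of these lists was at least 2-fold higher. In whole liver RNA, fewer cells of a type and less RNA per cell cannot be told apart.

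Tlr2, which pairs with TLR1 or TLR6 to bind lipopeptides, stood at -1.72 on the APS plus metformin array, -0.24 on the metformin array, -0.76 on the aging diabetic array and -0.25 on the natural aging array. The metformin and natural aging levels differed by less than the measurement error, and the APS plus metformin level lay below all others. Tlr2 was 2.78-fold lower on the APS plus metformin array than on the metformin array (-1.47 log2, error 0.17). Against the aging diabetic array it fell just short of 2-fold, at -0.96 log2 with an error of 0.17.

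Tlr4, the lipopolysaccharide receptor, stood at -1.87 on the APS plus metformin array, -0.72 on the metformin array, -1.34 on the aging diabetic array and -1.48 on the natural aging array. The metformin array was the highest and the APS plus metformin array the lowest, while the aging diabetic and natural aging arrays did not differ beyond measurement error. Tlr4 was 2.22-fold lower with APS plus metformin than with metformin (-1.15 log2, error 0.17), which became -0.99 when arrays were centred on their medians, short of 2-fold. The other differences were within 2-fold: 0.62 log2 for metformin against aging diabetic, -0.53 for APS plus metformin against aging diabetic, and 0.15 for aging diabetic against natural aging.

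By their brightest usable probes, the lipopolysaccharide partners of TLR4 did not follow its pattern. Cd14, the co-receptor that hands lipopolysaccharide to the TLR4 complex, stood at 1.34 on the APS plus metformin array, 1.62 on the metformin array, 0.13 on the aging diabetic array and 1.32 on the natural aging array. The aging diabetic array was the low one, and neighbours among the other 3 did not differ beyond measurement error. Cd14 was 2.29-fold lower on the aging diabetic than on the natural aging array, 2.80-fold higher with metformin than in the aging diabetic array, and 2.32-fold higher with APS plus metformin than in the aging diabetic array. Its second probe gave the same directions, with differences of -1.29, 1.77 and 1.31 log2 for these 3 comparisons. By that probe Cd14 was also lower with APS plus metformin than with metformin, at -0.46 log2 (error 0.16), which is beyond measurement error. The brighter probe gave -0.28 log2 there, within it.

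Ly96 encodes MD-2, the small secreted protein in which TLR4 holds lipopolysaccharide. Its bright probe stood at 4.39 on the APS plus metformin array, 4.17 on the metformin array, 4.34 on the aging diabetic array and 4.79 on the natural aging array. The natural aging array was highest and the 3 diabetic arrays differed by 0.22 log2 at most. On every array this probe read higher than the hepatocyte gene Alb, which stood between 3.78 and 4.23. Whether its signal comes from Ly96 RNA alone was not tested. The difference between aging diabetic and natural aging was -0.45 log2 (error 0.16), but -0.13 and so within measurement error after quantile normalization and in the authors' series values. The other Ly96 probe, for a second transcript variant, stood at -0.51 on the APS plus metformin array, -0.01 on the metformin array, -1.30 on the aging diabetic array and -0.06 on the natural aging array. It was lowest on the aging diabetic array, as both Cd14 probes were, but carried an outlier flag on the metformin and aging diabetic arrays and was therefore left out of the counts.

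Tlr5, the flagellin receptor, stood at -3.06 on the APS plus metformin array, -2.19 on the metformin array, -2.26 on the aging diabetic array and -3.81 on the natural aging array. The natural aging array was the lowest, and the metformin and aging diabetic arrays did not differ beyond measurement error. Tlr5 was 2.94-fold higher on the aging diabetic than on the natural aging array (1.55 log2, error 0.25), and fell short of 2-fold between APS plus metformin and metformin (-0.87 log2) and between APS plus metformin and aging diabetic (-0.80 log2).

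The endosomal receptors split. Tlr7, which detects single-stranded RNA, stood at -2.37 on the APS plus metformin array, -0.39 on the metformin array, -1.26 on the aging diabetic array and -0.98 on the natural aging array. The APS plus metformin array was the lowest by more than 1 log2, and the aging diabetic and natural aging arrays did not differ beyond measurement error. Tlr7 was 3.95-fold lower with APS plus metformin than with metformin (-1.98 log2, error 0.17) and 2.16-fold lower than in the aging diabetic array (-1.11 log2, error 0.17).

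A second Tlr7 probe for the same transcript stood at -4.07 on the APS plus metformin array, -1.83 on the metformin array, -1.96 on the aging diabetic array and -2.22 on the natural aging array. It also put the APS plus metformin array lowest, 4.71-fold below metformin and 4.33-fold below aging diabetic. The 2 probes differed for metformin against aging diabetic, at 0.87 log2 by the brighter probe and 0.12 by the other.

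Tlr8, whose human counterpart detects single-stranded RNA, stood at -2.68 on the APS plus metformin array, -1.12 on the metformin array, -2.40 on the aging diabetic array and -1.81 on the natural aging array. The metformin array was the highest, and the APS plus metformin and aging diabetic arrays did not differ beyond measurement error. Tlr8 was 2.94-fold lower with APS plus metformin than with metformin (-1.55 log2, error 0.18) and 2.43-fold higher with metformin than in the aging diabetic array (1.28 log2, error 0.18). Tlr8 and Tlr7 lie next to each other on the X chromosome, with 0 annotated genes between them.

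Tlr9, the receptor for unmethylated CpG DNA, stood at -0.24 on the APS plus metformin array, -0.44 on the metformin array, -0.23 on the aging diabetic array and 0.35 on the natural aging array. The 3 diabetic arrays did not differ beyond measurement error, and the difference between aging diabetic and natural aging was -0.58 log2. Myd88, the adaptor, stood at -0.03 on the APS plus metformin array, 0.17 on the metformin array, 0.11 on the aging diabetic array and 0.77 on the natural aging array. The natural aging array was again the highest, and the aging diabetic level was 1.58-fold lower than it.

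Tlr3, the receptor for double-stranded RNA, was near background. Its usable probe was well above background on the APS plus metformin array alone, with signals of 142 on the APS plus metformin array, 127 on the metformin array, 112 on the aging diabetic array and 91.7 on the natural aging array. The lowest signal well above background was between 114 and 119 on the 4 arrays, so no order can be read from this probe. The other Tlr3 probe was well above background at 232 on the metformin array and at 343 on the aging diabetic array, where it carried an outlier flag, and dim at 124 on the APS plus metformin array and 102 on the natural aging array.

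**Figure D2:**
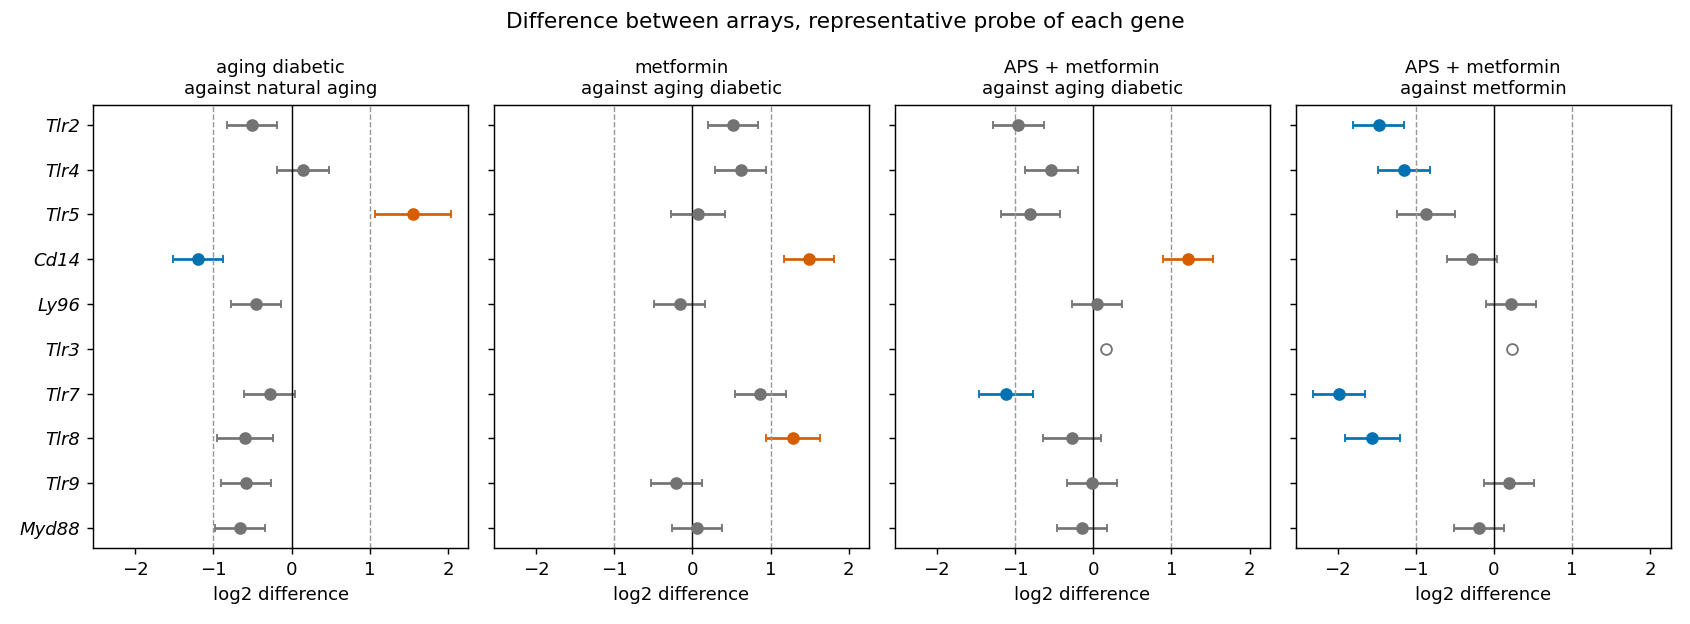
Log2 difference between 2 arrays (x axis) for the representative probe of each gene (y axis) in the 4 comparisons. Bars are the 95% interval from the measurement error, dashed lines mark 2-fold, coloured points are past it, and the open points of Tlr3 are bounds within measurement error. In the panel of APS plus metformin against metformin, Tlr2, Tlr4, Tlr7 and Tlr8 lie past 2-fold on the lower side, from -1.15 to -1.98, with Cd14, Ly96, Myd88 and Tlr9 near 0.

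In the other comparisons fewer of the 10 genes passed 2-fold. Metformin against aging diabetic had 2 of 9 compared genes higher (Cd14 and Tlr8) and 0 lower, where 11.9% of all 15562 genes compared were higher and 3.53% lower. The median was 0.52 log2 against -0.01 over all genes. APS plus metformin against aging diabetic had 1 of 10 higher (Cd14) and 1 lower (Tlr7), with 4.38% and 6.9% of all 14734 genes compared. The median was -0.21 log2 against 0.02 over all genes. Aging diabetic against natural aging had 1 of 9 higher (Tlr5) and 1 lower (Cd14), with 8.2% and 6.09% of all 14453 genes compared, and a median of -0.51 log2 against -0.05 over all genes. These comparisons share arrays: the aging diabetic array enters 3 of them, and the metformin and APS plus metformin arrays enter 2 each, so the patterns of a gene across them are not independent.

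Upstream sequence was available for 6 of the 10 genes, in the RefSeq promoter table of build GRCm38.p6. Cd14, Ly96, Tlr4 and Tlr7 had no entry. The windows below show Tlr8, high on the metformin array, Tlr5, low on the natural aging array, and Tlr9, within 2-fold across all arrays. They leave out other patterns, such as that of Cd14, low on the aging diabetic array. They run 5′ to 3′ on the gene's strand up to the annotated gene, and capitals mark matches to any of the motifs searched. For Tlr5, 214 of the 250 bases searched are shown, since the others lie inside the annotated gene.
Tlr8, chrX:167264330-167264579, minus strand: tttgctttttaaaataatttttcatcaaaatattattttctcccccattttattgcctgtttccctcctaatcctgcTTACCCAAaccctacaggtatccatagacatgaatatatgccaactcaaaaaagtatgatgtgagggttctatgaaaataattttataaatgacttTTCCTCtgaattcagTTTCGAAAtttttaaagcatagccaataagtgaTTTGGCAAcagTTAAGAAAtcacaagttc
Tlr5, chr1:182954538-182954751, plus strand: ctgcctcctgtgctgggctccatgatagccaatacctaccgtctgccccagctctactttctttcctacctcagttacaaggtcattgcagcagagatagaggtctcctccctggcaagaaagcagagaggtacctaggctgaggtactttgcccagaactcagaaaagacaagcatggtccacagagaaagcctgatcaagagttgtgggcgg
Tlr9, chr9:106222348-106222597, plus strand: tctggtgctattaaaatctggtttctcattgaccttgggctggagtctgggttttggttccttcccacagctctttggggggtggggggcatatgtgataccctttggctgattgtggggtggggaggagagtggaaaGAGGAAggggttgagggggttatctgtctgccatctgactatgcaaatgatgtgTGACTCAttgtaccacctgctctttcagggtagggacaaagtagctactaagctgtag

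The motifs were searched on both strands in the 250 bases before the start, in these 6 genes and in all 32851 promoters of the table. The core of PU.1, a factor of myeloid cells, was taken as GAGGAA. It occurred before Tlr8 and Tlr9 and in 23.3% of all promoters. The C/EBP motif TTNNGNAA occurred 4 times before Tlr8, counting a palindrome once, and before Tlr2 and Tlr3, against 36.8% of all promoters. The NF-kB motif GGGANTTNCC occurred before Tlr2, as GGGAATTCCC starting at position -172 from the start, and before Tlr3, as GGGAGTTTCC, and in 0.980% of all promoters. The AP-1 motif TGANTCA occurred before Tlr9 (6.75% of all promoters) and the IRF motif GAAANNGAAA before Myd88 as GAAAGCGAAA (2.98%). No motif matched before Tlr5, and no matches overlapped in the 3 windows shown other than the palindrome. A match describes letters only, and the study measured no binding.

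Shares of all genes past 2-fold stand beside the counts of this and the following lists. They were 12.4% lower and 2.37% higher between APS plus metformin and metformin, and 11.9% higher and 3.53% lower between metformin and aging diabetic. The shares were 4.38% higher and 6.9% lower between APS plus metformin and aging diabetic, and 8.2% and 6.09% between aging diabetic and natural aging. Outside the 10 genes, the remaining TLR genes on the array gave the following. Tlr1, the partner of TLR2, stood at -4.19 on the APS plus metformin array, -1.46 on the metformin array, -3.07 on the aging diabetic array and -2.74 on the natural aging array, and was 6.62-fold lower with APS plus metformin than with metformin. Tlr6, the other TLR2 partner, was 3.22-fold lower and Tlr13, a mouse receptor for bacterial ribosomal RNA, 2.68-fold lower in that comparison. Tlr12, a mouse receptor for a protozoan protein, went the other way. It stood at -0.79 with APS plus metformin, -3.15 with metformin and -1.79 in natural aging liver, and was not well above background on the aging diabetic array. Tlr12 was 5.13-fold higher with APS plus metformin than with metformin and at least 15.6-fold higher than in the aging diabetic array. It was at least 7.81-fold lower in aging diabetic than in natural aging liver. Of these 5 genes, 1 was higher and 3 were lower between APS plus metformin and metformin, with a median of -1.42 log2. Between metformin and aging diabetic 2 of 5 were higher, and between APS plus metformin and aging diabetic 1 was higher and 1 lower. Tlr11 was not well above background on the aging diabetic and natural aging arrays.

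**Figure D3:**
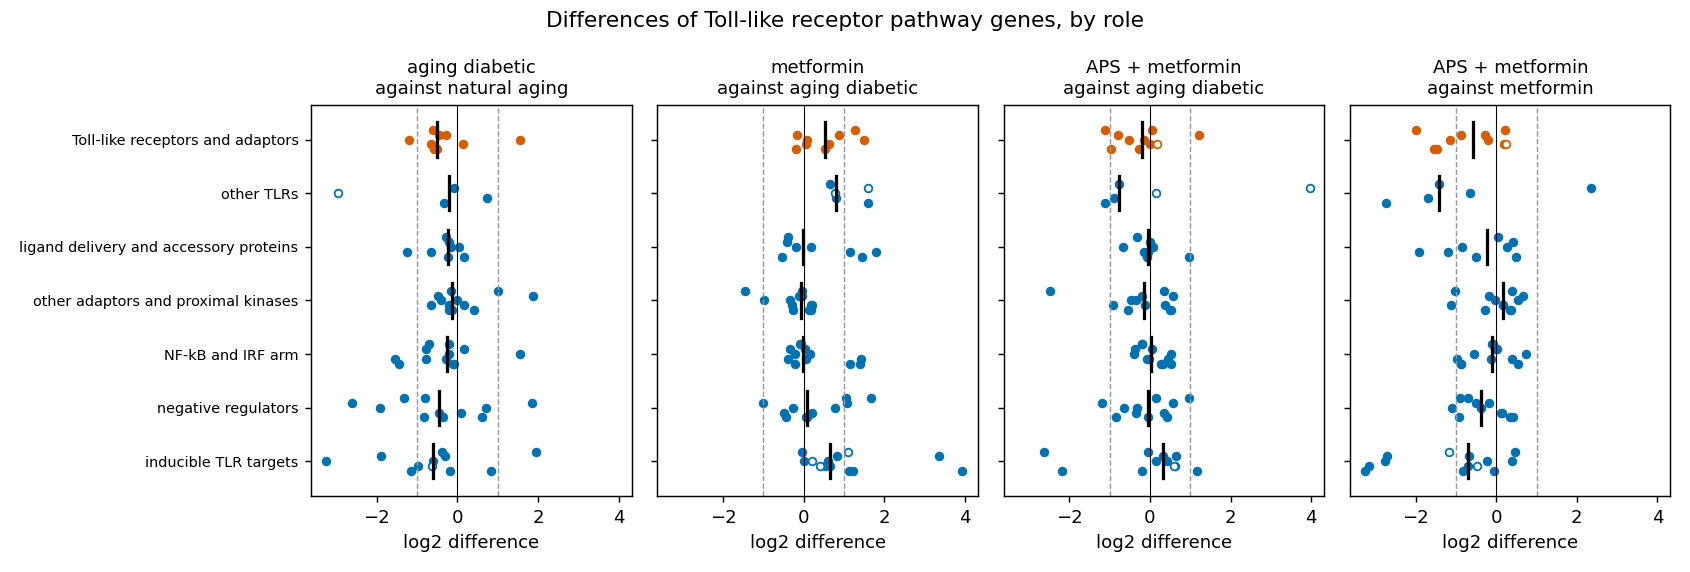
Log2 difference between 2 arrays (x axis) for genes of the TLR pathway grouped by role (y axis), with the 10 genes described above in orange. Each point is a gene, open points are bounds, black bars are medians and dashed lines mark 2-fold. The side of a bound is fixed by which array was well above background, and bounds enter the medians. Medians of the kinase and NF-kB groups lie between -0.25 and 0.17 in all 4 panels, while the inducible targets have medians of 0.65 for metformin against aging diabetic and -0.70 for APS plus metformin against metformin.

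The next list held ligand delivery and accessory proteins. Between APS plus metformin and metformin, where 12.4% of all genes were lower, 0 of 8 compared genes were higher and 2 lower (median -0.22 log2). These were Rab7b, a small GTPase that routes TLR4 to lysosomes (3.81-fold), and Ly86, the MD-1 protein that partners the receptor-like CD180 (2.31-fold). Unc93b1, the chaperone that takes endosomal TLRs to their compartment, differed by -0.85 log2. Between metformin and aging diabetic, 3 of 8 were higher: Rab7b at 3.46-fold, Lrrc32 at 2.75-fold and Ly86 at 2.21-fold. These data do not show a part of Lrrc32 in TLR function. Between APS plus metformin and aging diabetic, 0 of 8 passed 2-fold, and between aging diabetic and natural aging Rab7b alone was lower, at 2.37-fold.

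Of the other adaptors and proximal kinases, 0 of 12 compared genes were higher and 2 lower between APS plus metformin and metformin, with a median of 0.17 log2. Against aging diabetic, 0 were higher and 1 was lower with APS plus metformin and likewise with metformin, and there were 2 higher and 0 lower between aging diabetic and natural aging. Irak4, the kinase that MyD88 recruits first, stood at -3.18 on the APS plus metformin array, -2.15 on the metformin array, -0.70 on the aging diabetic array and -1.71 on the natural aging array. It was 2.04-fold lower with APS plus metformin than with metformin, 5.57-fold lower with APS plus metformin than in the aging diabetic array, 2.73-fold lower with metformin than in the aging diabetic array, and 2.01-fold higher in the aging diabetic than in the natural aging array. Traf3, an adaptor of the interferon branch, was 2.17-fold lower with APS plus metformin than with metformin. Tab1, a partner of the kinase TAK1, was 3.66-fold higher in the aging diabetic than in the natural aging array. The other 9 compared genes, Ticam1 (TRIF) and Tirap among them, were within 2-fold in all 4 comparisons, and Map3k7, the kinase TAK1, came closest at -0.99 log2 between metformin and aging diabetic.

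In the NF-kB and interferon regulatory factor group, 0 of 12 compared genes passed 2-fold between APS plus metformin and metformin or between APS plus metformin and aging diabetic. Between metformin and aging diabetic 3 were higher and 0 lower: Irf8, a factor of myeloid cells (2.67-fold), Relb, an NF-kB subunit (2.64-fold), and Irf7, which acts below TLR7 and TLR9 (2.22-fold). Between aging diabetic and natural aging Irf8 was 2.91-fold and Relb 2.72-fold lower, and Ikbkg, the regulatory subunit of the NF-kB kinase, was 2.96-fold higher. The median was -0.10 log2 between APS plus metformin and metformin, and -0.25 between aging diabetic and natural aging.

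Among negative regulators, 1 of 11 compared genes was higher and 3 were lower between aging diabetic and natural aging (median -0.46 log2). Socs3 and Socs1, which damp cytokine and TLR signalling, were 6.13-fold and 3.80-fold lower, Tnfaip3 (A20), a ubiquitin-editing brake on NF-kB, was 2.51-fold lower, and Sarm1 was 3.61-fold higher. Between metformin and aging diabetic 3 were higher (Dusp1 at 3.18-fold, Socs3 at 2.11-fold and Tnfaip3 at 2.06-fold) and 1 was lower (Sarm1 at 2.01-fold). Between APS plus metformin and aging diabetic Sarm1 alone was lower, at 2.29-fold, and between APS plus metformin and metformin Socs1 alone was, at 2.14-fold.

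Inducible targets of TLR signalling were compared for 13 of the 20 genes listed between APS plus metformin and metformin, with 5 lower and 0 higher (median -0.70 log2). The chemokine genes Ccl2, Ccl3, Ccl4 and Ccl5 were 9.64-fold, 8.96-fold, 6.83-fold and 6.59-fold lower, and Cxcl2 at least 2.27-fold lower. Cxcl2 and Il6 were well above background on the metformin array alone. As bounds they could enter this comparison only on the lower side. For metformin against aging diabetic they could enter only on the higher side, and both are in the medians. Between metformin and aging diabetic 5 of 13 were higher (median 0.65 log2), led by Ccl2 at 15.1-fold and Ccl5 at 10.2-fold. The other members past 2-fold were Il1b at 2.34-fold, Acod1 at 2.19-fold and Cxcl2 at a bound of at least 2.14-fold. Between APS plus metformin and aging diabetic 1 of 11 was higher, Il1b at 2.25-fold, and 2 were lower, Ccl3 at 6.24-fold and Ccl4 at 4.51-fold. Between aging diabetic and natural aging 3 of 11 were lower, the neutrophil attractant Cxcl1 at 9.52-fold, Ccl2 at 3.71-fold and Il1b at 2.21-fold, while Ccl3 was 3.88-fold higher. Tnf, Il10, Il12b, Ptgs2 and Ifnb1 were not well above background on any array.

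Markers of the cells that carry TLRs also differed between these arrays. Counts of markers stand beside 12.4% of all genes lower between APS plus metformin and metformin, and 11.9% higher between metformin and aging diabetic. Of 8 markers of recruited monocytes and macrophages, 0 were higher and 4 lower between APS plus metformin and metformin, among them Cx3cr1 (at least 15.7-fold) and Ccr2 (6.94-fold). The same count between metformin and aging diabetic was 4 higher and 0 lower, with Cx3cr1 at 12.3-fold, and 0 of 7 passed 2-fold between APS plus metformin and aging diabetic. The summed signal of the 8 genes was 32.9, 37.8, 30.6 and 36.2 times the 75th percentile on the APS plus metformin, metformin, aging diabetic and natural aging arrays. Itgam was the brightest of them on every array and was 0.54 log2 higher with APS plus metformin than with metformin, against the direction of Cx3cr1 and Ccr2. Its probe read near the hepatocyte gene Alb, at 4.13 against 4.12 with APS plus metformin and 3.59 against 3.78 with metformin. Alb was 0.34 log2 higher in the same comparison. Whether the Itgam signal comes from Itgam RNA alone was not tested. Cx3cr1 on the APS plus metformin array, and Itgax on the APS plus metformin and aging diabetic arrays, were not well above background. Their bounds could count only as lower between APS plus metformin and metformin. That of Itgax could count only as higher between metformin and aging diabetic. The 6 measured Kupffer cell markers summed to 19.4, 27.3, 24.8 and 37.0 on the same arrays, all 6 of them well above background on each. None was higher in any of the 4 comparisons. Adgre1, the F4/80 antigen, was 2.83-fold lower between APS plus metformin and metformin, and 2 of 6 were lower in each treated array against aging diabetic.

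Of the other lists, T and NK cell markers had the widest ratio of sums apart from acinar genes, at 0.685 on the APS plus metformin array, 3.43 on the metformin array, 0.446 on the aging diabetic array and 1.37 on the natural aging array. All 5 compared genes were lower between APS plus metformin and metformin, and Klrb1c was not well above background on any array. Between metformin and aging diabetic, 4 of these 5 were higher. Among B cell genes, Cd79b was 2.06-fold lower with APS plus metformin than with metformin and 2.49-fold higher with metformin than in the aging diabetic array, and Ms4a1 was well above background on the metformin array alone. Neutrophil markers summed to 15.5, 14.4, 14.3 and 20.7 on the APS plus metformin, metformin, aging diabetic and natural aging arrays, with Mmp9 not well above background on the 3 diabetic arrays and Cxcr2 on the aging diabetic array. Csf3r carries most of this sum. S100a9 was 2.68-fold lower with APS plus metformin than with metformin, 1 of 4 compared genes there, and 3 of 5 were lower between aging diabetic and natural aging. On the same arrays, plasmacytoid dendritic cell markers summed to 20.4, 20.2, 21.6 and 26.2, and sinusoidal endothelial markers to 19.4, 20.0, 16.6 and 23.6, each gene well above background on all 4 arrays. In each of these lists 1 of 5 genes was lower between APS plus metformin and metformin, and 2 and 1 of 5 were higher between metformin and aging diabetic. Siglech and Bst2 carry most of the plasmacytoid dendritic cell sum. Stellate cell markers summed to 11.9, 13.1, 8.13 and 13.3, with Reln not well above background on any array, and hepatocyte markers to 50.8, 38.8, 49.2 and 56.2. Dcn carries most of the stellate cell sum. Col1a1 was 5.85-fold lower with APS plus metformin than with metformin, and with metformin it was 3.76-fold and Pdgfrb 5.76-fold higher than in the aging diabetic array. The part of these markers in the TLR differences was not tested.

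**Figure D4:**
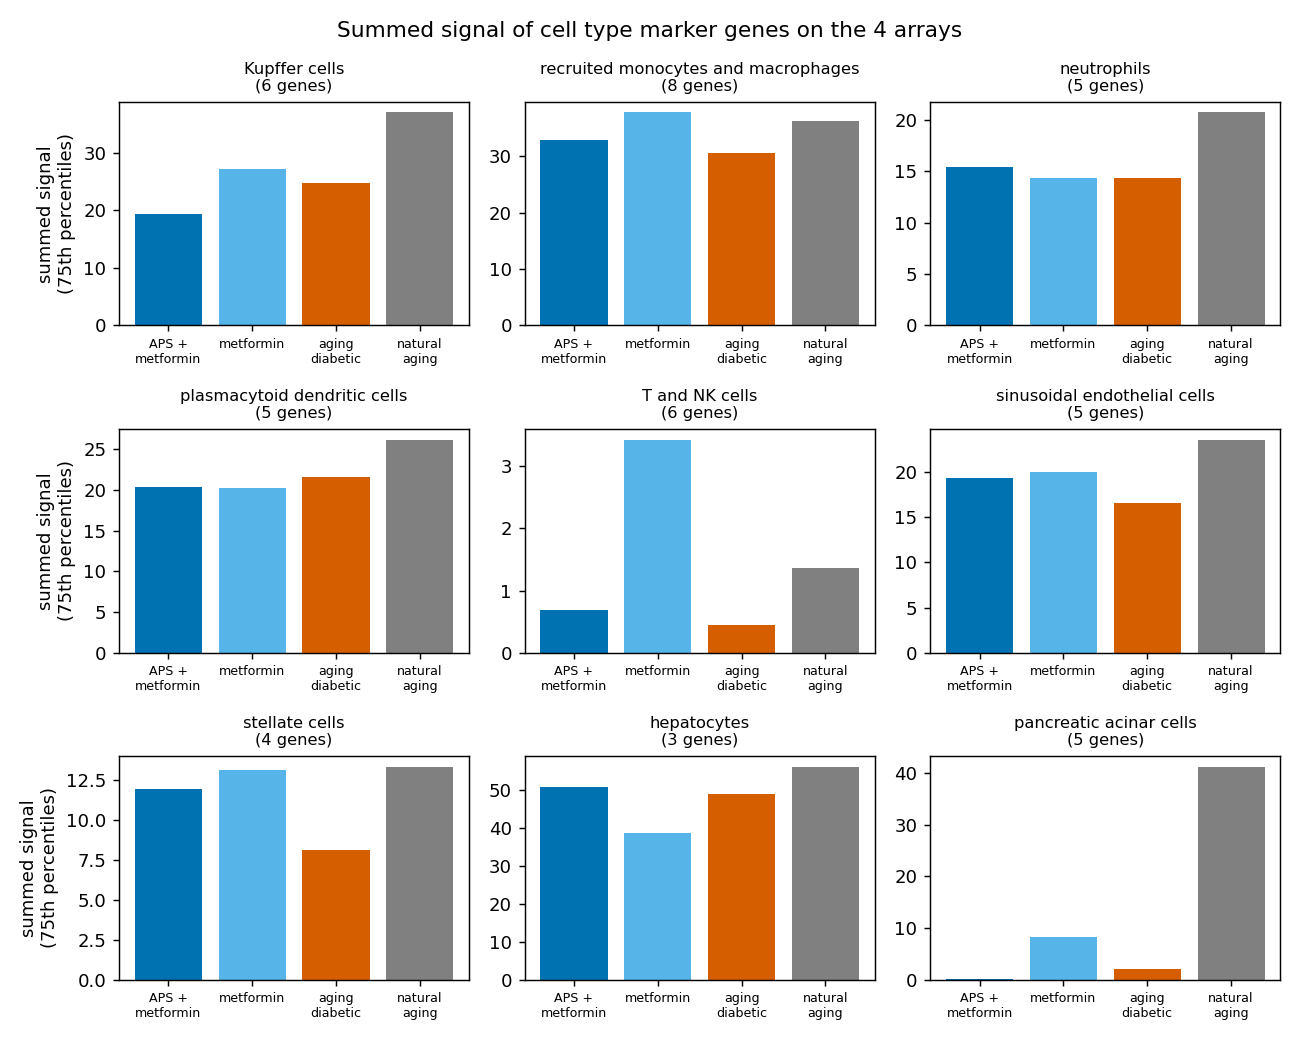
Summed signal of the marker genes of 9 cell types (y axis, in units of the array's 75th percentile, linear, each panel on its own scale from 0) on the 4 arrays (x axis). T and NK cell markers are highest on the metformin array, at 3.43, and acinar markers on the natural aging array, at 41.2.

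The likeness of patterns was measured as the Euclidean distance between centred log2 levels over the 4 arrays, among 12689 genes well above background on all of them. With 4 arrays and this many genes, close matches are common. The nearest genes were Rhoc, Wars2 and Nipa1 to Tlr4 (0.04 to 0.11 log2), Rgl1, H2ac23 and 4930572O13Rik to Tlr2 (0.12 to 0.20), and Lrfn3, Vmn1r51 and Baiap2 to Tlr5 (0.06 to 0.11). They were Tubb2a-ps2, Plcg2 and Syn1 to Tlr7 (0.12 to 0.16), Rgs10, Vmn2r3 and Blnk to Tlr8 (0.07 to 0.10), and Adamts13, Pkdcc and Tgfbi to Cd14 (0.13 to 0.16). Among the 9 genes well above background on all arrays, the closest pairs were Tlr9 with Ly96 (0.15), Tlr9 with Myd88 (0.28), Myd88 with Ly96 (0.34) and Tlr2 with Tlr7 (0.44). Ly96 enters these pairs by its bright probe alone.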

How the data were processed

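Total liver RNA was labelled with Cy5 and hybridised to 1-colour Agilent arrays, 4 arrays on 1 slide. The authors deposited spot intensity per array, background-subtracted and detrended within each array by Agilent Feature Extraction, version 11.5.1.1 per the file headers and 10.7 per the submitters' processing notes. The deposited series table holds log2 values that the authors normalized in GeneSpring, per the labels' protocols, by a method not given in the sources used here. Its columns have equal medians (7.84) and each correlates best with its own array (0.999 or more).

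Each array's 75th percentile was subtracted from log2 of its processed signal (Python 3.11.15, numpy 2.4.6, pandas 2.3.3, scipy 1.17.1). Control spots were dropped, as were spots flagged as outliers, which kept 51780 probes and 22047 genes. Accessions were matched without version to RefSeq names, and the brightest usable probe stood for a gene. Genes with at least 1 array of a pair well above background were compared. Where only 1 was, the difference is a bound, taken from the dim array's own signal or its lowest detected signal, whichever is larger. A bound on the opposite side was given no difference, so the side of a bound is fixed by which array was well above background. No test was run, since the design has 1 array per group. The procedure was tested on simulated data.

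The genes and lists were chosen with earlier results of these data known. Genes are named by a rule: all 10 genes with every probe, up to 4 genes with the largest differences per list and comparison, and the 3 nearest patterns to genes that range over 1 log2. Genes named as not well above background, and genes named beyond these limits in a list, were chosen after their values were seen. The motifs were chosen after the data were seen. The 8 alternatives used quantile normalization, median centring, normexp correction (limma 3.58.1, offset 50, on median spot and background signals, as the files used here hold no mean spot signal), the authors' series values, outlier spots kept, mean of detected probes, no filter on dim probes, and only genes well above background on all 4 arrays. Slide as a block was not run, since there was 1 slide. The number of arrays limits the precision. The summed level of one further marker list is not reported here.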

Additional observations from a re-analysis of the deposited data

How the results depend on the processing

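All 10 differences past 2-fold kept their direction under the 8 alternatives, and 9 stayed past 2-fold under all of them. The exception was Tlr4 between APS plus metformin and metformin, at -0.99 log2 after median centring. That setting moved the median of all genes by -0.17 log2 for metformin against aging diabetic and by 0.17 for APS plus metformin against metformin, and the higher share of all genes past 2-fold there became 63.9% in place of 77.1% and 28.0% in place of 16.0%. Counts of the 10 genes changed when outlier spots were kept, which lets the second Tlr3 probe stand for Tlr3: 2 were then higher between aging diabetic and natural aging, and 2 lower between APS plus metformin and aging diabetic, in place of 1 each. Tlr3 between APS plus metformin and metformin was then -0.84 log2, against a bound of 0.24. Ly96 between aging diabetic and natural aging was -0.13 log2 after quantile normalization and in the authors' series values, in place of -0.45. Averaging probes put Tlr7 at 0.50 for metformin against aging diabetic and at -1.61 for APS plus metformin against aging diabetic.

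Over all genes, dropping the filter on dim probes gave 2132 higher and 1363 lower (1185 and 880 with it) for aging diabetic against natural aging, 3076 higher (1851) for metformin against aging diabetic, 1107 higher and 1536 lower (646 and 1017) for APS plus metformin against aging diabetic, and 631 higher and 3161 lower (370 and 1939) for APS plus metformin against metformin. Requiring all 4 arrays well above background gave 1049 higher for metformin against aging diabetic, and 242 higher and 1117 lower for APS plus metformin against metformin, where median centring gave 583 higher. No paired analysis was possible because each group has 1 array, and no replicate could be left out.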
